A study of Mus musculus with 32 samples.

Results

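A set of 9 genes known from the differentiation of spermatogonia was followed here, namely Kit, Sohlh1, Sohlh2, Neurog3, Dmrtb1, Dmrt1, Sall4, Lin28a and Uchl1. They were chosen by name, with earlier results of these data known. Each was matched to 1 Ensembl gene through GENCODE release M21 on the mouse build GRCm38, and all 9 were found among the 20368 genes of the juvenile gene table and the 85537 genes of the adult table. Of the 28 juvenile mice, 28 had a level of at least 3 TPM (transcript abundance scaled to a fixed sum per sample) for 8 of the members, whereas Neurog3 reached it in 10 mice.

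Poly-A RNA-seq was performed on male C57BL/6J mice that carried no mutation or treatment named in the labels. Juvenile samples were germ cells isolated from both testes of single mice, 3 at 8 days post-partum (dpp) and 5 at each later age, every 2 days up to 18 dpp. The study had sampled 5 mice at 8 dpp as well and left out 2 whose data matched the others of that age poorly. The spread at 8 dpp is thus that of the mice kept. Each of the 4 adult samples held pachytene and diplotene spermatocytes pooled from 6 mice at 9 weeks of age and enriched by size through sedimentation at unit gravity. The juvenile preparations were washed to remove interstitial cells, and the germ cells were then isolated through a mesh, without a sort. By the study's own microscopy they were mostly germ cells, and each is a mixture of all germ cell stages present at that age and of the somatic cells that remained.

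Spermatogonia begin as a small pool of stem cells and undifferentiated progenitors. Retinoic acid drives them into a differentiating series that divides by mitosis and carries the receptor tyrosine kinase KIT on its surface, and the last of these divisions yields spermatocytes, which enter meiosis. During the first wave of spermatogenesis in the juvenile testis, spermatogonia and early spermatocytes come first, and pachytene spermatocytes accumulate later. By the study's own microscopy, spermatogonia were the majority of the germ cells at every age sampled, with a share that decreased over time. NEUROG3, SALL4, LIN28A and UCHL1 are used as markers of undifferentiated or early spermatogonia, SOHLH1 and SOHLH2 are transcription factors of differentiating spermatogonia, and the DM-domain factors DMRT1 and DMRTB1 act before and at the switch from mitosis to meiosis.

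TPM is a level per transcript length, so levels of different genes can be set side by side, but it keeps no read counts. The depth per mouse is therefore unknown, no counting error can be given, and the spread between mice stands as the error. Marker lists checked the labels. The summed TPM of 4 germ cell markers (Ddx4, Dazl, Mael and Tex101) lay between 709.2 and 928.6 at 8 dpp and between 2216 and 2473 at 18 dpp, and that of 6 pachytene markers between 33.9 and 43.5 at 8 dpp and between 2517 and 4588 at 18 dpp. The 6 did not contribute alike. At 18 dpp Ldhc had the highest mean of them, 2396 TPM, and Hist1h1t was at 0.40 TPM, too low in all juvenile mice to be tested. All 9 Sertoli cell markers were present, with a sum of 7446 to 8499 at 8 dpp, 3545 to 4683 at 18 dpp and 318.1 to 465.0 in the adult samples. Mast cell markers, which matter because mast cells carry KIT, summed to at most 4.54 TPM in any juvenile mouse and were at 0 in the adult samples. Other somatic cells were present too, and 6 Leydig cell markers summed to between 168.2 and 472.1 TPM in the juvenile mice. The part of any somatic cell type in the level of Kit was not tested. At 18 dpp mice 1 to 3 stood apart from mice 4 and 5, with pachytene sums of 4435 to 4588 against 2517 to 2637 and Sertoli sums of 3545 to 3695 against 4660 to 4683. For the members and their transcripts, limma results that rest on 18 dpp are therefore also given without either set where that changes a call. The lists of other genes and the ratios were not examined in this way.

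Age comparisons used limma on log2(TPM + 1) with the 6 ages in a single model, and adjusted p-values are Benjamini-Hochberg values over all 20368 genes. Differences on this scale understate those of genes with low levels such as Neurog3. Any difference among the ages was called in 8 of the 9 members, at adjusted p-values from 1.18e-13 (Dmrt1) to 8.25e-05 (Neurog3). Sohlh2 was not called (adjusted p = 0.142), although it was without mouse 5 of 18 dpp (adjusted p = 0.0112) and with mice 1 to 3 alone at that age (adjusted p = 0.000978). Across all genes 77.6% were called in this test, so a call alone did not set the members apart.

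Between 8 and 18 dpp, 8 members fell and Dmrtb1 rose, against 36.3% of all genes that fell and 31.8% that rose. The median difference of the members was -0.87 on the log2 scale, beside -0.09 for all genes. The mice of the 2 ages did not overlap for 8 members, the exception being Sohlh2. All mice of 18 dpp lay under all of 8 dpp for 7 members and above them for Dmrtb1, against 32.0% and 29.0% of all genes. The samples are bulk preparations, and TPM is scaled to a fixed sum per sample. Fewer cells of a type, less RNA per cell and more RNA from other cells thus cannot be told apart in any of these values. Pachytene markers rose and Sertoli markers fell over the same ages, as given above, and their part in the members' changes was not tested.

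**Figure D1:**
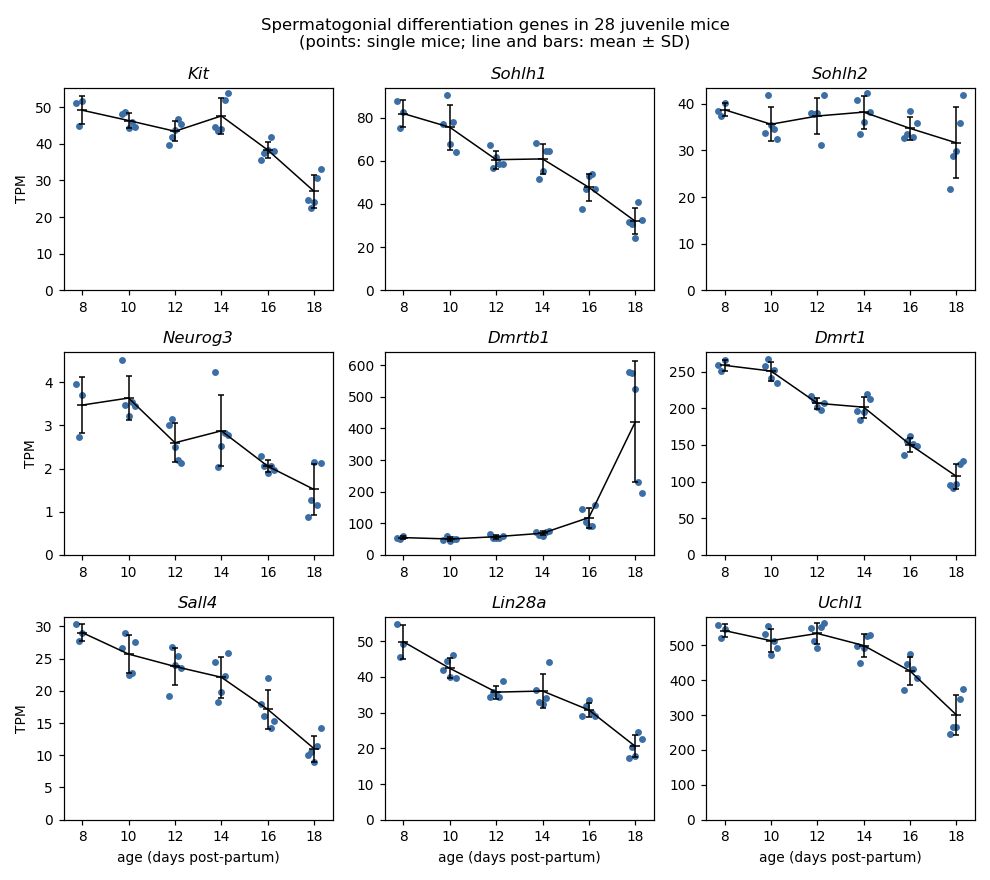
Level of each gene in TPM (y axis, from 0, with a scale of its own in each panel) by age in dpp (x axis). Points are single mice, and the black line with bars gives the mean ± SD (n = 3 at 8 dpp, n = 5 at the other ages). Kit stayed between 39.6 and 53.8 TPM until 14 dpp and lay between 22.5 and 33.0 at 18 dpp, while Dmrtb1 reached 194.5 to 578.9.

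Kit (ENSMUSG00000005672, chr5:75574916-75656722, plus strand) encodes the receptor itself. Its level was 51.2, 44.8 and 51.6 TPM in the mice of 8 dpp. The mice of 14 dpp held 44.7, 43.6, 44.1, 52.0 and 53.8 TPM, those of 16 dpp held 35.7, 37.5, 38.4, 42.0 and 38.0 TPM, and those of 18 dpp held 24.7, 22.5, 24.2, 30.7 and 33.0 TPM. The 8 and 14 dpp mice overlapped, whereas every mouse of 18 dpp lay under every mouse of the earlier ages. The mean of 27.0 ± 4.55 (SD, n = 5) at 18 dpp was 54.9% of the 49.2 ± 3.77 (SD, n = 3) at 8 dpp, a log2 difference of -0.85 (SE 0.0977, limma adjusted p = 1.59e-08).

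The KIT ligand and the intracellular pathway were described by a list of 22 genes, all of which were tested. From 8 to 18 dpp 15 of them fell, 3 rose and 4 did not pass the threshold, against 36.3% of all genes that fell and 31.8% that rose. The list's median of -0.48 stood beside -0.09 for all genes. Kitl, which encodes the ligand and is made by Sertoli cells, fell from 158.5 ± 6.06 TPM (SD, n = 3) to 44.4 ± 6.97 TPM (SD, n = 5), a log2 difference of -1.82 (SE 0.131, limma adjusted p = 2.38e-12). From 8 to 12 dpp Kitl fell by 0.68 on the log2 scale (SE 0.131, limma adjusted p = 0.000441). Kit differed by -0.17 (SE 0.0977, adjusted p = 0.212) over those ages, and it was called under median-of-ratios scaling (-0.20, adjusted p = 0.0462), with the mouse number as a block (-0.24, adjusted p = 0.0462) and with mice 1 to 3 of each age alone (-0.23, adjusted p = 0.0213). The difference between the 2 genes was not tested. The tyrosine kinase gene Src fell by 1.45 and the kinase gene Akt1 fell by 1.28 on the log2 scale. The 3 that rose were Pik3cd (log2 difference 0.81), which encodes a catalytic subunit of phosphoinositide 3-kinase, the phosphatase gene Ptpn6 (0.70), and Cbl (0.53), which encodes a ubiquitin ligase that turns over activated receptors. Ptpn6 was low, at 1.42 ± 0.58 TPM (SD, n = 3) at 8 dpp and 2.94 ± 0.95 TPM (SD, n = 5) at 18 dpp. Its limma adjusted p was 0.0289 (SE 0.281).

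Kit is transcribed into several annotated isoforms. Kit-201 and Kit-204 share 19 of their exons base for base, and the coding sequence of Kit-201 is 12 bases longer, 2937 against 2925, because its exon 9 ends 12 bases later. These bases are the well-known alternative stretch next to the membrane-spanning part of the receptor. They are shown because they are nearly all that tells the isoforms apart, the only other difference being 39 bases at the start of the first exon. The end of exon 9 of Kit-201 (GRCm38, chr5:75639111-75639158, plus strand, from the GENCODE transcript) reads as follows, with the bases absent from Kit-204 in capitals.
Kit-201 end of exon 9: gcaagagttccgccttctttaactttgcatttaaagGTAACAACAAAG
Kit-204 held 60.5% ± 7.49 (SD, n = 3) of the gene's TPM at 8 dpp and 53.0% ± 15.9 (SD, n = 5) at 18 dpp. Its level was 29.6 ± 2.22 TPM and then 14.0 ± 3.56 TPM, and it fell by 1.06 on the log2 scale (SE 0.190, limma adjusted p = 4.18e-05 over all transcripts). Kit-201 went from 18.2 ± 4.49 to 12.3 ± 6.33 TPM and did not pass the threshold (log2 difference -0.63, SE 0.264, adjusted p = 0.0567), although it did with mouse 5 of 18 dpp left out (adjusted p = 0.00258), with mouse 2 of 8 dpp left out (adjusted p = 0.0476) or with mice 1 to 3 alone at 18 dpp (adjusted p = 0.00293). The log2 ratio of the isoforms was 0.69 ± 0.42 at 8 dpp and 0.25 ± 0.91 at 18 dpp, which overlapped between the ages (exact permutation test, two-sided p = 0.518, adjusted p = 0.518 over 3 ratios). A difference in the fall of the 2 isoforms was thus not shown. The RNA-seq reads of 100 bp were split between isoforms by the authors' estimation program, so isoform levels carry more error than gene levels.

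Sohlh1 (ENSMUSG00000059625, chr2:25842995-25847248, minus strand) and Sohlh2 (ENSMUSG00000027794, chr3:55182028-55209957, plus strand) encode related helix-loop-helix factors that both act in the step to differentiating spermatogonia. Sohlh1 was at 87.9, 75.3 and 82.4 TPM at 8 dpp and at 31.6, 30.9, 24.1, 40.8 and 32.5 TPM at 18 dpp. Its mean fell to 39.1% of that of 8 dpp, a log2 difference of -1.35 (SE 0.129, limma adjusted p = 6.03e-10), with no overlap between the ages. Sohlh1 was also among the members that had fallen at 12 dpp.

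Sohlh2 was at 38.6, 37.4 and 40.2 TPM at 8 dpp and at 21.7, 28.7, 29.9, 35.9 and 41.9 TPM at 18 dpp, so that the highest mouse of all these was of 18 dpp. Its difference was -0.32 on the log2 scale (SE 0.130) and its limma adjusted p was 0.0341. This call rested on mice 1 to 3 of 18 dpp: with mice 4 and 5 alone at that age the difference was 0.00 (adjusted p = 0.999). It was also lost when any of the 3 mice of 8 dpp or any of mice 1 to 3 of 18 dpp was left out (adjusted p = 0.0541 to 0.128), and under median-of-ratios scaling (difference -0.14, adjusted p = 0.275).

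The 2 genes were compared directly within each mouse. The log2 ratio of Sohlh1 to Sohlh2 was 1.06 ± 0.10 (SD, n = 3) at 8 dpp, 0.65 ± 0.07 (SD, n = 5) at 14 dpp and 0.03 ± 0.36 (SD, n = 5) at 18 dpp. The ratio was lower at 18 dpp than at 14 dpp by 0.63 in an exact permutation test (two-sided p = 0.00794, the smallest the design allows, adjusted p = 0.0238 over 3 ratios) and lower than at 8 dpp by 1.03 (exact p = 0.0179, again the smallest possible, adjusted p = 0.0268). The mice did not overlap in either comparison. The ratio was chosen after the values of both genes had been seen. With mouse 2, 3 or 4 of 18 dpp left out, the comparison with 8 dpp gave an exact p of 0.0571. A ratio within a mouse shows that the genes changed unequally, not which of them changed.

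The region before the start of Sohlh1 is shown because it held more E-boxes than any other member's. An E-box is the motif CANNTG to which helix-loop-helix factors bind as a class, and it was searched in the 250 bases before each RefSeq start, where its complement reads the same. The hexamer AGGTCA, a half-site of retinoic acid receptors and so only a part of a full site, was searched on both strands. Of the 32851 windows of RefSeq, 66.2% held an E-box and 14.0% held AGGTCA, and 1.15% held 5 or more E-boxes. Windows were given for 7 of the 9 members, Kit and Dmrtb1 with 2 each, and Dmrt1 and Sall4 had none in the table. Of these 9 windows 5 held an E-box, namely those of Sohlh1 (5), both of Dmrtb1 (3 and 2), Sohlh2 (1) and Neurog3 (1). The windows of Kit, Lin28a and Uchl1 held none. The window of Sohlh1 (GRCm38.p6, chr2:25847249-25847498, minus strand) was the only one of them with AGGTCA, which overlaps an E-box there. Capitals mark the motifs.
Sohlh1 upstream: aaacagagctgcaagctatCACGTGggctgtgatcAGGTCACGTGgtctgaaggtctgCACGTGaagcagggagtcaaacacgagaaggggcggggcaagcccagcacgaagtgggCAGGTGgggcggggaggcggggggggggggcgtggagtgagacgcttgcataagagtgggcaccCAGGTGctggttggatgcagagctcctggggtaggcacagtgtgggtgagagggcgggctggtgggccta
These matches are letters in a window, and binding was not measured.

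Neurog3 (ENSMUSG00000044312, chr10:62133090-62134763, plus strand), a helix-loop-helix factor of undifferentiated spermatogonia on the way to differentiation, had the lowest level of the members at every age. It was at 3.97, 2.74 and 3.71 TPM at 8 dpp, at 2.29, 2.06, 1.91, 2.07 and 1.96 TPM at 16 dpp, and at 0.88, 1.28, 2.16, 1.15 and 2.12 TPM at 18 dpp. The mice of 8 and 18 dpp did not overlap, and the log2 difference of -0.85 (SE 0.178) had a limma adjusted p of 0.000137. Neurog3 overlaps Fam241b on the other strand, and as the sources used here do not name a strand-specific kit, reads of the 2 genes cannot be told apart in the overlap.

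Dmrt1 (ENSMUSG00000024837, chr19:25505618-25604329, plus strand) encodes a DM-domain factor that holds spermatogonia in mitosis and is also made by Sertoli cells. It was at 258.2, 251.0 and 265.9 TPM at 8 dpp, at 195.9, 184.1, 195.1, 219.8 and 211.9 TPM at 14 dpp, and at 95.5, 91.8, 96.7, 124.0 and 127.7 TPM at 18 dpp. None of these ages overlapped. The mean at 18 dpp was 41.5% of that at 8 dpp, and the log2 difference of -1.28 (SE 0.0861, limma adjusted p = 6.68e-13) had the smallest p of the members. Of the 9 Sertoli markers 8 fell and 1 rose over the same ages (median log2 difference -0.99), against 36.3% and 31.8% of all genes. The part of Sertoli cells in the fall of Dmrt1 was not tested. Its main isoform Dmrt1-201 fell by 1.25 on the log2 scale, and the minor isoform Dmrt1-202, at 5.59 ± 3.08 TPM (SD, n = 3) at 8 dpp and 0.54 ± 0.73 TPM (SD, n = 5) at 18 dpp, fell by 2.13 (adjusted p = 0.00103), a call lost with mice 4 and 5 alone at 18 dpp (difference -1.40, adjusted p = 0.0924).

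Dmrtb1 (ENSMUSG00000028610, chr4:107676290-107684230, minus strand), also called Dmrt6, encodes a DM-domain factor of late differentiating spermatogonia. It was the only member that rose. Its level was 53.6, 49.9 and 61.2 TPM at 8 dpp and 71.8, 63.3, 59.7, 74.1 and 74.98 TPM at 14 dpp. It was 146.0, 103.5, 91.2, 92.0 and 158.4 TPM at 16 dpp and 578.9, 573.7, 523.5, 231.0 and 194.5 TPM at 18 dpp. All mice of 16 dpp lay above all of 14 dpp, and all of 18 dpp above all of 16 dpp. The mean at 18 dpp was 766% of that at 8 dpp, with a log2 difference of 2.77 (SE 0.258, limma adjusted p = 3.40e-10). Mice 1 to 3 of 18 dpp averaged 558.7 TPM and mice 4 and 5 averaged 212.8 TPM, which is the order of their pachytene marker sums.

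In the authors' split of reads between annotated transcripts, the rise of Dmrtb1 lay in a single one. The limit given for the isoform levels of Kit holds here too. The gene has 3 annotated transcripts. Dmrtb1-201 (ENSMUST00000069271) starts with an exon of 651 bases that holds the annotated start codon and 583 coding bases. Dmrtb1-203 (ENSMUST00000131776) instead starts with an exon of 115 bases that begins at the last base of that exon and runs into the first intron of Dmrtb1-201. No start codon is annotated in Dmrtb1-203, although it is annotated as protein-coding with 609 coding bases. Exons 2 and 3 are the same in both, and exon 4 differs by 2 bases at its end. Apart from those bases, only the first exons tell the transcripts apart. The first exon of Dmrtb1-203 (GRCm38, chr4:107683466-107683580, minus strand, from the GENCODE transcript) is shown because it marks the transcript that rose. Only its first base is shared with Dmrtb1-201.
Dmrtb1-203 exon 1: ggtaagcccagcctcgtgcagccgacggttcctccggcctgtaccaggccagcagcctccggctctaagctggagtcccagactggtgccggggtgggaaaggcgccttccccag

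**Figure D2:**
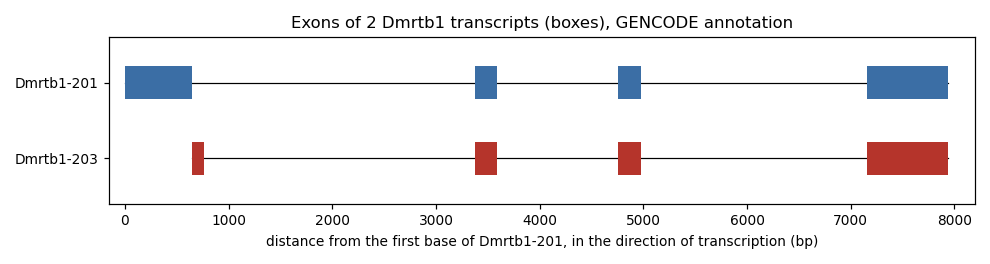
Exons (boxes) and introns (lines) of Dmrtb1-201 and Dmrtb1-203 in GENCODE M21, drawn to scale by distance in bp from the first base of Dmrtb1-201 (x axis). The first exon of Dmrtb1-203, 115 bases, begins where the 651-base first exon of Dmrtb1-201 ends.

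Dmrtb1-201 was at 50.04, 49.9 and 61.2 TPM at 8 dpp and at 44.2, 41.4, 44.8, 48.6 and 46.5 TPM at 18 dpp, with a range of 41.4 to 72.0 TPM over all 28 mice. Dmrtb1-203 was listed at 0 in 2 of the 3 mice of 8 dpp and at 3.55 TPM in the other one. It was listed at 0 to 8.54 TPM at 14 dpp, and was at 96.7, 52.7, 36.5, 40.8 and 100.7 TPM at 16 dpp and at 534.7, 532.3, 478.8, 182.5 and 148.0 TPM at 18 dpp. Its share of the gene's TPM went from 4.53% ± 4.49 (SD, n = 5) at 14 dpp to 53.0% ± 11.5 at 16 dpp and 86.3% ± 8.11 at 18 dpp. In limma over 41089 transcripts Dmrtb1-203 rose by 7.63 on the log2(TPM + 1) scale from 8 to 18 dpp (SE 0.708, adjusted p = 1.32e-09), a value that depends on the pseudocount because the 8 dpp mice were at or near 0. Dmrtb1-201 fell by 0.24 (SE 0.0870, adjusted p = 0.0251), a call lost without mouse 3 of 8 dpp (adjusted p = 0.235), without mouse 2 of 18 dpp (adjusted p = 0.0605) or with mice 4 and 5 alone at 18 dpp (adjusted p = 0.269).

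**Figure D3:**
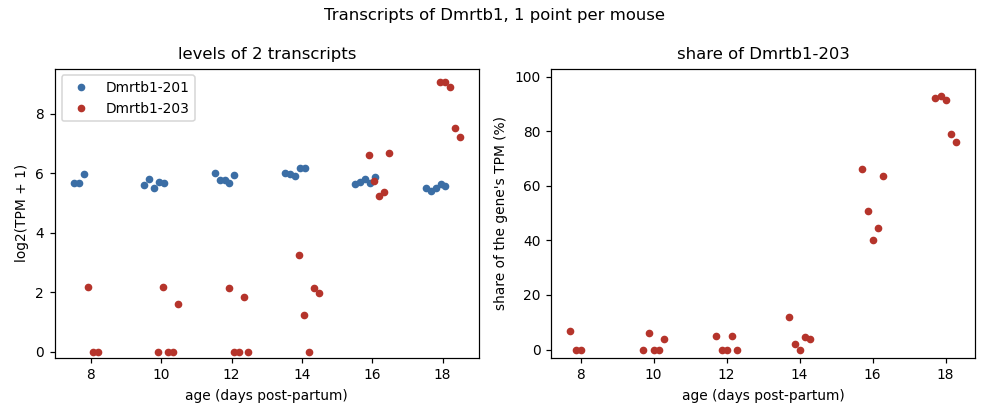
Left, level of the 2 transcripts of Dmrtb1 as log2(TPM + 1) (y axis) by age in dpp (x axis), and right, share of Dmrtb1-203 in the gene's TPM in percent, with 1 point per mouse. Dmrtb1-201 kept to between 41.4 and 72.0 TPM in all mice, and the share of Dmrtb1-203 went from at most 11.9% at 14 dpp to between 76.1% and 92.8% at 18 dpp.

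RefSeq gives Dmrtb1 2 starts, and the later lies 9 bases before the start of Dmrtb1-203. The 250 bases before each are shown because the transcripts behaved differently. The upstream window (GRCm38.p6, chr4:107684231-107684480, minus strand) has a GC content of 42.4%. The other window (chr4:107683590-107683839, minus strand), which lies within the first exon of Dmrtb1-201, has one of 75.6%. Capitals mark E-boxes, and neither window held AGGTCA.
Dmrtb1 window before the first start: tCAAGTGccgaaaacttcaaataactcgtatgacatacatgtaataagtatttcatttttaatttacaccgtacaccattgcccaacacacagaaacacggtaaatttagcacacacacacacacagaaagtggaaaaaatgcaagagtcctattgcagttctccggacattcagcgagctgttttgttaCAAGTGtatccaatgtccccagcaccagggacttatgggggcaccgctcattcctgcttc
Dmrtb1 window before the later start: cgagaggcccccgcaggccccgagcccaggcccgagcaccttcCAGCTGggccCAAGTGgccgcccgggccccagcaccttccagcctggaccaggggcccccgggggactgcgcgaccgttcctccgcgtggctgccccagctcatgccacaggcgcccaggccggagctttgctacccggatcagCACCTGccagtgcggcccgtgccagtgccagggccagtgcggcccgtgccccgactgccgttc

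Sall4 (ENSMUSG00000027547, chr2:168748332-168767943, minus strand), a zinc finger factor of undifferentiated and early differentiating spermatogonia, was at 30.3, 27.8 and 28.9 TPM at 8 dpp and at 9.99, 10.5, 9.01, 11.4 and 14.3 TPM at 18 dpp. It fell to 38.0% of its mean at 8 dpp (log2 difference -1.33, SE 0.137, limma adjusted p = 2.14e-09), and the mice did not overlap. Lin28a (ENSMUSG00000050966, chr4:134003330-134018841, minus strand) encodes an RNA-binding protein that blocks the maturation of let-7 microRNAs. It was at 54.9, 45.6 and 49.1 TPM at 8 dpp and at 17.4, 20.4, 17.8, 24.5 and 22.8 TPM at 18 dpp, again with no overlap (log2 difference -1.25, SE 0.101, adjusted p = 2.33e-11). Its paralogue Lin28b, at 7.47 ± 0.75 TPM (SD, n = 3) and 7.61 ± 0.87 TPM (SD, n = 5), did not pass the threshold over these ages (difference 0.02, SE 0.112, adjusted p = 0.874). Sall4 and Lin28a overlap the genes Gm14261 and Gm13061 on the other strand, with the limit given for Neurog3.

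Uchl1 (ENSMUSG00000029223, chr5:66676091-66687234, plus strand), which encodes the deubiquitinating enzyme UCHL1 (PGP9.5), had the highest level of the members until 16 dpp. It was at 557.8, 520.7 and 547.7 TPM at 8 dpp, at 371.2, 446.7, 475.7, 431.6 and 406.4 TPM at 16 dpp, and at 245.9, 266.4, 267.2, 346.5 and 375.9 TPM at 18 dpp. The mice of 16 and 18 dpp overlapped and those of 8 and 18 dpp did not, and the mean fell to 55.4% of that at 8 dpp (log2 difference -0.87, SE 0.102, limma adjusted p = 2.31e-08). Uchl1-202, annotated as a retained intron, held 24.2% ± 3.59 (SD, n = 3) of the gene's TPM at 8 dpp and 27.3% ± 11.2 (SD, n = 5) at 18 dpp. Uchl1 overlaps Uchl1os on the other strand, with the same limit.

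Of the 29 transcripts of the members in the table, 17 reached 3 TPM in at least 1 juvenile mouse and were tested. Between 8 and 18 dpp 12 fell, Dmrtb1-203 rose and 4 did not pass the threshold, against 44.1% of all transcripts called in either direction. The 4 were Kit-201, given above, Sohlh2-201 (adjusted p = 0.0562), which is the whole of Sohlh2 in the table and is called at the gene level, and the minor transcripts Kit-205 and Sall4-203. Sall4-201, the main transcript of its gene, fell by 1.33 on the log2 scale (adjusted p = 1.02e-09). The call of Dmrtb1-201 was lost without single mice, as given above, and so were 3 others. Those of Sall4-206, Uchl1-202 and Uchl1-203 (adjusted p = 0.0462, 0.0437 and 0.0186), had adjusted p-values of up to 0.109, 0.147 and 0.111 with a mouse left out. For Sall4-206 these were mice 1 to 3 of 8 dpp and mice 2 and 3 of 18 dpp, for Uchl1-202 mice 1 to 3 of both ages, and for Uchl1-203 mice 2 and 3 of 8 dpp and mouse 4 of 18 dpp. Sohlh2-201 was called without mouse 4 or 5 of 18 dpp (adjusted p = 0.0309 and 0.00535) and with mice 1 to 3 alone at that age (adjusted p = 0.000471). With mice 1 to 3 alone the call of Uchl1-203 was lost (adjusted p = 0.0743), and with mice 4 and 5 alone those of Sall4-206 (adjusted p = 0.387) and Uchl1-202 (difference 0.08, adjusted p = 0.861) were lost.

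At 8 dpp the order of the levels in TPM was Uchl1, Dmrt1, Sohlh1, Dmrtb1, Lin28a, Kit, Sohlh2, Sall4 and Neurog3, with means of 542.1, 258.4, 81.9, 54.9, 49.8, 49.2, 38.7, 29.02 and 3.47. Dmrtb1, Lin28a and Kit overlapped between mice and cannot be ordered. At 18 dpp Dmrtb1 and Uchl1 overlapped at the top, Dmrt1 followed at 107.1 ± 17.2 TPM (SD, n = 5), and Sohlh1, Sohlh2, Kit and Lin28a overlapped with their neighbours between means of 32.0 and 20.6 TPM.

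The time of the change was examined over 2 windows of equal length. The library barcodes in the labels of 8 to 12 dpp are used again at 14 to 18 dpp, and each window stays within a single set of barcodes. Comparisons between the sets, such as 8 with 18 dpp or 12 with 14 dpp, cannot tell age from anything that went with the set. Whether the sets were sequenced apart is not stated. From 8 to 12 dpp 3 members fell, Lin28a by 0.47 (SE 0.101, limma adjusted p = 0.00124), Dmrt1 by 0.32 (SE 0.0861, adjusted p = 0.00745) and Sohlh1 by 0.43 (SE 0.129, adjusted p = 0.0161), and no member rose, against 10.0% of all genes that fell and 13.0% that rose. The call of Sohlh1 was lost without mouse 1 of 8 dpp (adjusted p = 0.0872) or mouse 3 of 8 dpp (adjusted p = 0.0532). From 14 to 18 dpp 8 members fell and Dmrtb1 rose, by 2.45 (SE 0.223, adjusted p = 3.71e-10), against 42.1% of all genes that fell and 26.3% that rose. The median of the members was -0.28 in the first window and -0.78 in the second, beside 0.01 and -0.21 for all genes. Median-of-ratios scaling, which moved the median of all genes from 14 to 18 dpp to -0.01, turned the share of all calls that rose from 38.5% to 54.3%. The call of Sohlh2 was lost under that scaling (difference -0.07, adjusted p = 0.583), when mouse 1 or 4 of 14 dpp or mouse 1 or 2 of 18 dpp was left out (adjusted p = 0.0530 to 0.126), and with mice 4 and 5 alone at 18 dpp (difference 0.02, adjusted p = 0.876).

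The change from 14 to 18 dpp minus the change from 8 to 12 dpp was tested within the same model. Dmrtb1 had the larger rise in the later window (difference of the changes 2.38, SE 0.341, limma adjusted p = 2.71e-06), against 21.0% of all genes with a difference above 0. The differences were -0.73 for Uchl1 (adjusted p = 7.41e-05), -0.59 for Dmrt1 (adjusted p = 0.000109), -0.63 for Kit (adjusted p = 0.000239), -0.66 for Sall4 (adjusted p = 0.00353), -0.49 for Sohlh1 (adjusted p = 0.0187) and -0.32 for Lin28a (adjusted p = 0.0482), against 30.6% of all genes with a difference under 0. Sohlh2 and Neurog3 did not pass the threshold (adjusted p = 0.255 and 0.268), although Sohlh2 did with mice 1 to 3 alone at 18 dpp (-0.45, adjusted p = 0.0086). With mice 4 and 5 alone at 18 dpp, the members called went from 7 to 4, the calls of Sall4, Sohlh1 and Lin28a being lost (adjusted p = 0.0843, 0.224 and 0.531). Under median-of-ratios scaling Sohlh1 (-0.24, adjusted p = 0.225) and Lin28a (-0.07, adjusted p = 0.646) were not called, and the share of all calls above 0 went from 40.7% to 62.1%. The call of Lin28a was also lost in 20 of the 28 fits that left out a mouse (adjusted p of up to 0.147), and that of Sohlh1 without mouse 2 of 8 dpp (adjusted p = 0.0609).

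**Figure D4:**
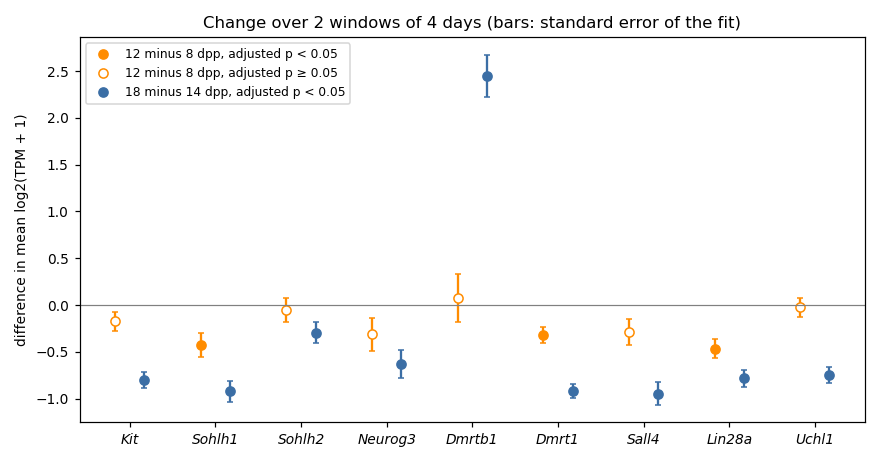
Difference in mean log2(TPM + 1) (y axis) of each gene from 8 to 12 dpp (orange) and from 14 to 18 dpp (blue), with bars of 1 SE of the limma fit. Filled points passed the threshold of 0.05 on the adjusted p. From 14 to 18 dpp 8 genes lie under 0 and Dmrtb1 lies at 2.45, while from 8 to 12 dpp 3 genes are filled.

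Steps of 2 days placed the changes further. No member was called from 8 to 10 dpp by limma (Lin28a alone had an unadjusted p under 0.05, 0.0331), where 0.226% of all genes fell and 0.977% rose. From 10 to 12 dpp Dmrt1 (adjusted p = 0.00833) and Sohlh1 (adjusted p = 0.0497) fell, with 9.39% of all genes that fell and 12.0% that rose, and Lin28a lay just outside (adjusted p = 0.0504). No member was called from 12 to 14 dpp, at an unadjusted p under 0.05 either, where 0.0147% of all genes fell and 0.157% rose (91.4% of the calls rose, or 81.2% under median-of-ratios scaling). From 14 to 16 dpp Dmrt1 (adjusted p = 0.000135), Kit (0.0099), Sohlh1 (0.0234) and Sall4 (0.0300) fell and Dmrtb1 rose by 0.74 (adjusted p = 0.0164), against 11.3% and 12.7% of all genes. From 16 to 18 dpp 6 members fell and Dmrtb1 rose by 1.71 (adjusted p = 2.05e-06), against 30.6% and 23.4%, while Neurog3 (0.0912) and Sohlh2 (0.235) did not pass the threshold. With mice 4 and 5 alone at 18 dpp the falls of Sohlh1 (-0.37, adjusted p = 0.0594) and Sall4 (-0.38, adjusted p = 0.0813) over this last step were not called, and with mice 1 to 3 alone Sohlh2 was (-0.37, adjusted p = 0.00246). Under median-of-ratios scaling the share of all calls that rose went from 53.0% to 66.3% from 14 to 16 dpp (41.6% under quantile normalization) and from 43.4% to 63.0% from 16 to 18 dpp.

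Several of these steps rested on single mice. The call of Sohlh1 from 10 to 12 dpp was lost without any of mice 1, 2 and 4 of 10 dpp or mice 2 to 5 of 12 dpp (adjusted p of up to 0.155), and also, through the shared spread alone, without mice 1 to 3 of 8 dpp, mice 1, 3, 4 and 5 of 14 dpp, mice 2 and 5 of 16 dpp or mice 1, 2 and 5 of 18 dpp (adjusted p of up to 0.0568). The rise of Dmrtb1 from 14 to 16 dpp was lost without mouse 1 (adjusted p = 0.0564) or mouse 5 (adjusted p = 0.0610) of 16 dpp, the 2 mice with the highest levels at that age. The falls of Sohlh1 and Sall4 over that step were lost without mouse 1, 4 or 5 of 14 dpp, that of Sohlh1 also without mouse 1 of 16 dpp, and that of Sall4 also without mouse 2, 4 or 5 of 16 dpp (adjusted p of up to 0.0968). Calls were gained too. Lin28a was called from 10 to 12 dpp in 9 of the 28 fits that left out a mouse and from 14 to 16 dpp without mouse 3 of 16 dpp (adjusted p = 0.0478), and Uchl1 was called over the latter step in 5 of them (adjusted p from 0.0249). From 16 to 18 dpp Neurog3 was called without mouse 3 or 5 of 18 dpp (adjusted p = 0.0387 and 0.0337) and Sohlh2 without mouse 5 of 18 dpp (adjusted p = 0.0297). With mice 4 and 5 alone, or mice 1 to 3 alone, at 18 dpp, which alters the shared spread, Lin28a was called from 10 to 12 dpp (adjusted p = 0.0178 and 0.0192) and from 14 to 16 dpp (adjusted p = 0.0275 and 0.0297), and Uchl1 was called from 14 to 16 dpp (adjusted p = 0.00612 and 0.00493).

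At 18 dpp 7 members were higher in both mice 4 and 5 than in each of mice 1 to 3, Dmrtb1 was lower in both, and Neurog3 overlapped. Of all genes 32.7% were higher and 25.2% lower in the same way. Kit averaged 31.9 TPM in mice 4 and 5 and 23.8 TPM in mice 1 to 3, and Uchl1 averaged 361.2 and 259.8 TPM. The marker sums given above for these mice differ as well, and their part in the members' values was not tested.

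The adult pachytene and diplotene spermatocytes were set beside the juvenile levels without a test, because the tables were made separately. Dmrtb1 was at 1433.8, 1499.5, 1329.7 and 1443.7 TPM (mean 1426.7 ± 70.8, SD, n = 4), above every juvenile mouse. Uchl1 was at 20.4, 24.4, 24.6 and 20.4 TPM, under its lowest juvenile value of 245.9 TPM. Dmrt1 was at 2.24, 3.43, 3.22 and 4.28 TPM, and Kit was at 1.84, 1.45, 1.88 and 1.28 TPM. The means of Lin28a, Sohlh2, Sohlh1 and Sall4 were 0.80 ± 0.33, 0.72 ± 0.29, 0.62 ± 0.42 and 0.55 ± 0.34 TPM (SD, n = 4). Neurog3 was listed at 0 in 3 samples and at 0.12 TPM in the other. All 8 members other than Dmrtb1 lay in every adult sample under every juvenile mouse, as did 47.6% of the 20366 genes in both tables, and 21.4% lay above as Dmrtb1 did. The adult samples had pachytene marker sums of 9514 to 9763 TPM and spermatid marker sums of 861.7 to 1166 TPM, and the adult table gives no transcripts, so the isoform of Dmrtb1 in these cells was not determined.

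**Figure D5:**
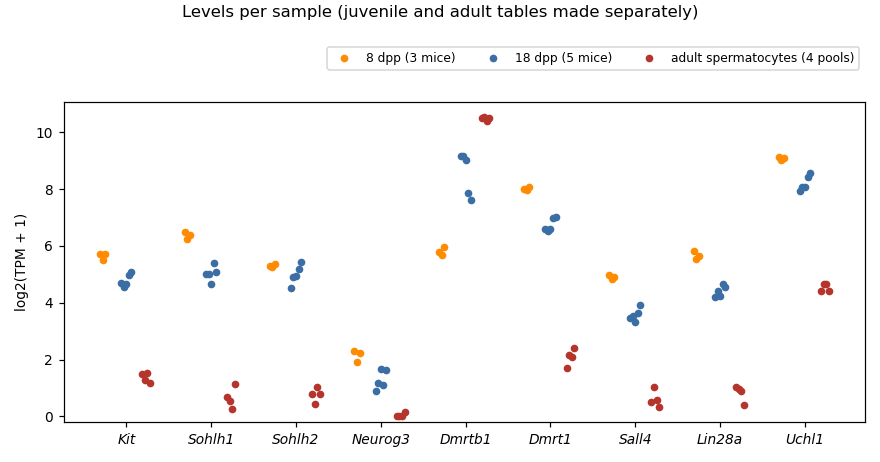
Level of each gene as log2(TPM + 1) (y axis) in the mice of 8 dpp (orange, 3), 18 dpp (blue, 5) and in the adult spermatocyte samples (red, 4 pools of 6 mice), with 1 point per sample. Dmrtb1 is highest in the adult samples, with a mean of 1426.7 TPM, and the other 8 genes are lowest there.

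Other genes of spermatogonial differentiation were given by a list of 16, all tested. From 8 to 18 dpp 13 fell, none rose and 3 did not pass the threshold (median -0.95), against 36.3% of all genes that fell and 31.8% that rose. The 3 were Tex14 (adjusted p = 0.105), a gene of intercellular bridges, Nanos3 (0.0894) and Lin28b. Of the list, Ccnd2, the gene of a cyclin that rises as spermatogonia begin to differentiate, fell by 2.03, Kitl by the 1.82 given above and Upp1, the gene of a uridine phosphorylase, fell by 1.39. Stra8, which retinoic acid induces, fell from 208.8 ± 39.0 TPM (SD, n = 3) to 86.7 ± 14.0 TPM (SD, n = 5), with a log2 difference of -1.255 (SE 0.117, limma adjusted p = 3.70e-10), and was at 2.75 ± 1.47 TPM (SD, n = 4) in the adult samples.

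Of 16 genes of stem cells and undifferentiated spermatogonia 11 were tested, the others (Lhx1, Nanos2, Eomes, Pax7 and T) being too low in all mice. From 8 to 18 dpp 8 fell, 1 rose and 2 did not pass the threshold (median -0.73), against 36.3% and 31.8% of all genes that fell and rose. Ret fell by 1.49 and Gfra1 fell by 1.24 (adjusted p = 8.48e-11 and 6.95e-07), and they encode the receptor pair for the niche factor GDNF. Zbtb16, which encodes the progenitor factor PLZF, fell by 1.24 (adjusted p = 2.87e-12). The gene that rose was Id4, an inhibitor of helix-loop-helix factors that is used as a stem cell marker, from 11.6 ± 0.64 TPM (SD, n = 3) to 53.9 ± 5.76 TPM (SD, n = 5), by 2.12 (SE 0.121, adjusted p = 2.53e-14). Id4 was at a mean of 61.8 TPM in the adult spermatocytes. Of the general germ cell genes, the helicase gene Ddx4 rose by 1.59 (adjusted p = 1.30e-12), and the RNA-binding protein gene Dazl, at 318.7 ± 47.0 and 331.1 ± 51.8 TPM, did not pass the threshold (difference 0.05, SE 0.104, adjusted p = 0.668).

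The genes most like each member over the 6 ages were sought among 14887 Ensembl genes with a symbol, by the root mean square difference of the age means of log2(TPM + 1) after each gene's own mean was removed. They were Zfp64 (0.017) and Plod1 (0.024) for Kit, Ctdsp2 (0.022) and Xylt2 (0.025) for Sohlh1, Uaca (0.0071) and Ppp6r1 (0.011) for Sohlh2, and Kmt5b (0.029) and Tbc1d24 (0.031) for Neurog3. For Dmrt1 they were Aff3 (0.020) and Spock2 (0.033), for Sall4 Ubtf (0.030) and Cacng7 (0.031), for Lin28a Fcho1 (0.034) and Ppm1a (0.041), and for Uchl1 Ndrg1 (0.020) and Arpc5 (0.026). The nearest to Dmrtb1 were Gm14144 (0.074) and Gm16278 (0.080), both listed at 0 in all mice of 8 dpp and at 6.40 ± 1.80 and 6.74 ± 3.18 TPM (SD, n = 5) at 18 dpp. The likeness is a description of 6 means that share their mice.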

How the data were processed

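Poly-A libraries of germ cells from 28 juvenile mice and of 4 pools of adult spermatocytes were read with 100 bp paired ends. As the study's methods state, the authors built a transcript reference on mm10 from Ensembl 75, NONCODE 4 and piRNA precursor loci, aligned to it by Bowtie 1.0.0, and had RSEM 1.2.8 quantify each transcript in TPM. They deposited TPM per transcript for the juvenile mice and TPM per gene for the adult samples. The juvenile gene table deposited by the authors held another score, exp(log2(TPM + 1)) - 1, although TPM had been assumed for the design. It was converted back to TPM, and 20288 of 20368 genes, all members among them, then lay within 0.2 TPM of the sum of their transcripts in every mouse. Column sums after conversion were 990305 to 993726. The gene lists that the authors assigned to meiotic stages were not used.

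Genes or transcripts with at least 3 TPM in at least 1 juvenile mouse were tested with limma 3.58.1 (R 4.3.3) on log2(TPM + 1), with a pseudocount of 1, a mean for each age, a prior variance following expression and a threshold of 0.05 on the Benjamini-Hochberg adjusted p. Each mouse was 1 sample. The method was tested on simulated data. Exact permutation tests for ratios were two-sided. Python 3.11.15, numpy 2.4.6, pandas 2.3.3 and matplotlib 3.10.9 did the rest. Gene positions and exons came from GENCODE M21, on the build the authors used, and windows before starts from RefSeq (GRCm38.p6).

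The members and lists were chosen with earlier results of these data known. The text names all members, their transcripts of at least 3 TPM, the 2 genes most like each member, the largest changes past the threshold of each list (up to 3 each way), Kitl, Stra8, Ddx4 and Dazl. Genes named beyond these were chosen after their values were seen. Alternatives covered the pseudocount, the filter, summed transcripts, scaling, how the prior variance was set, which ages entered the model, the mouse number as a block, subsets of mice and each mouse left out. Those that kept mice 1 to 3 or mice 4 and 5 alone at 18 dpp, and the ratios, were chosen after the data had been seen.

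Markers of other cell types, as the range of summed TPM over juvenile mice, were 168.2 to 472.1 for 6 Leydig, 524.3 to 1879 for 5 peritubular, 19.7 to 76.5 for 5 macrophage, 31.8 to 94.6 for 4 endothelial, 0.99 to 7.19 for 6 spermatid, 89.7 to 417.8 for 4 red blood cell and 195.3 to 911.4 for 4 early spermatocyte genes.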

Additional observations from a re-analysis of the deposited data

Results flagged for a closer look

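In 2 of the 54 groups of 4 or 5 samples examined for the members, a sample lay farther from the others than the critical value for its group size allows, and chance alone gives about 1 in 20. Neurog3 was at 4.51 TPM in mouse 1 of 10 dpp, against 3.22 to 3.54 TPM in the other mice of that age. Neurog3 was also at 0.12 TPM in adult sample 4 and listed at 0 in the other 3.

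The change from 14 to 18 dpp differed from the change from 8 to 12 dpp, in the test of the difference itself, in 7 members, against 30.6% of all genes with a difference under 0 and 21.0% with one above 0. The differences of the changes, on the log2(TPM + 1) scale, were 2.38 for Dmrtb1, -0.73 for Uchl1, -0.66 for Sall4, -0.63 for Kit, -0.59 for Dmrt1, -0.49 for Sohlh1 and -0.32 for Lin28a. The calls of Sall4, Sohlh1 and Lin28a were lost with mice 4 and 5 alone at 18 dpp, and those of Sohlh1 and Lin28a under median-of-ratios scaling. The call of Lin28a was also lost in 20 of the 28 fits that left out a mouse, and that of Sohlh1 in 1 of them.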

How the results depend on the processing

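No depth is known, so the spread between 3 to 5 mice limits every value, and differences from levels near 0, such as that of Dmrtb1-203, depend on the pseudocount. Of the counts of members called, those for any age, 8 to 18 dpp, 8 to 12 dpp, 14 to 18 dpp and 16 to 18 dpp stayed within 1.5 times the main count under every alternative run, and so did the count of transcripts called (13, or 9 to 15 with single mice left out). From 10 to 12 dpp the count of 2 became 1 with no filter on low values, with a filter of 1 TPM, with a single prior variance and with the replicate block, 4 with only the ages compared in the model, and 1 to 3 with single mice left out. From 14 to 16 dpp the count of 5 became 2 with no filter on low values, 3 with mice 1 to 3 alone, and 3 to 7 with single mice left out. With mice 4 and 5 alone at 18 dpp, the difference between the 2 windows was called in 4 members rather than 7. That setting also turned the sign of Sohlh2 from 8 to 18 dpp (0.00148) and from 14 to 18 dpp (0.0241) and of Uchl1-202 from 8 to 18 dpp (0.0816), all on the log2 scale, and none of these was called. The cause was not tested.

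Mouse numbers are shared between ages but name different animals. Of 65 pairs of same-numbered mice 3 had a correlation of their deviations over 0.1 (range -0.25 to 0.25, median 0.014). Of 28 mice 9 correlated best with a mouse of the same number, and the share that chance would give was not computed. For mice 4 and 5 of 14 dpp the sample titles give other numbers than the descriptions, and those of the descriptions were used. With the replicate block the members called were 4 rather than 3 from 8 to 12 dpp (Kit was added, adjusted p = 0.0462), 1 rather than 2 from 10 to 12 dpp, and 6 rather than 7 for the difference between the windows. In all genes, the calls from 8 to 10 dpp went from 245 to 158 with the block and to 129 with only those ages in the model, and were 106, 140 and 121 without mice 1, 2 and 3 of 8 dpp, and those from 12 to 14 dpp ranged from 1 to 107 over the alternatives other than single mice left out (main 35, and 2 to 129 with single mice left out). From 16 to 18 dpp mice 4 and 5 alone gave 3452 rather than 11002 calls in all genes, and for the difference between the windows 6724 rather than 10498.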
